A study of Mus musculus with 2 samples.

Results

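Hairpin genes of microRNAs known from microglia and blood leukocytes were measured in mouse hippocampus: Mir342, Mir146, Mir150, Mir142, Mir155, Mir223, Mir146b, Mir511 and Mir142b. These 9 genes were picked by their symbols from the 2202 microRNA genes counted, with earlier results of these data known. The rule also names Mir142a and Mir142hg, which matched no gene of the count tables used here. Small RNA was sequenced from tissue labelled as a layer of hippocampus, from adult male mice of the strain label 5xFAD/CAST, aged 8 to 10 months. 5xFAD mice carry transgenes driven by the neuronal Thy1 promoter, among them mutant human APP, and serve as a model of amyloid disease. CAST is a wild-derived strain. The labels do not say how the strains were combined. The 2 libraries, replicates 1 and 2, form 1 group with no control, so nothing below measures an effect of genotype, age or disease. They carry separate tissue records and 1 shared donor record, so whether they came from separate animals is not settled. The p-values below that compare the libraries measure only how these 2 samples differ, which may be technical. Those of neighbouring genes compare counts within 1 library and measure counting error only.

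A microRNA is cut from a hairpin precursor and guides Argonaute proteins to messenger RNAs, mainly by pairing of its seed, bases 2 to 8 from the 5′ end. Microglia are the resident macrophages of the brain and derive from the blood-forming lineage, so they share microRNAs with leukocytes. miR-142 is known from nearly all blood cells, miR-223 from neutrophils and other myeloid cells, and miR-150 from mature lymphocytes. miR-155 is induced, and miR-146a is induced as a feedback brake, when Toll-like receptors and NF-kB are active. Other cells of brain tissue, vessels and blood can also express several of these microRNAs, and no cells were sorted here.

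The mature sequences below are those of the RefSeq table (build GRCm38.p6), which held 15 mature entries of the 9 genes. Printed are 1 entry of each gene, and for Mir142 both arms, so that members can be told apart by their seeds. For Mir150, Mir511 and Mir142b it is the single entry of the table, which need not be the arm that the reads come from. The seed is in capitals.
mmu-miR-342-3p: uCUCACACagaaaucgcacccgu
mmu-miR-146a-5p: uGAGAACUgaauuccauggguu
mmu-miR-146b-5p: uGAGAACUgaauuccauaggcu
mmu-miR-150-3p: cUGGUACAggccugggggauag
mmu-miR-142a-3p: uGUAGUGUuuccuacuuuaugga
mmu-miR-142a-5p: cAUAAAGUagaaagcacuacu
mmu-miR-142b: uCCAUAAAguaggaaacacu
mmu-miR-155-5p: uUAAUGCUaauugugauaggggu
mmu-miR-223-3p: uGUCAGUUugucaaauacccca
mmu-miR-511-3p: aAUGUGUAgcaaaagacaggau
The 15 entries held 14 distinct seeds, and the 5p arms of Mir146 and Mir146b were the only ones that shared one. Outside the members, none of the 1738 mature microRNAs of the table had the seed of any of these 15 entries. None of the 15 sequences occurred on the same strand in a second hairpin of the count tables. Counts are per hairpin, so the 5p and 3p arms of a gene cannot be told apart below.

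The members held 17839 of 3421977 assigned reads in replicate 1 and 12660 of 2820468 in replicate 2. Their share was 0.521% in replicate 1 (95% interval by the Clopper-Pearson method 0.514 to 0.529) and 0.449% in replicate 2 (0.441 to 0.457). Assigned reads were 35.2% and 33.0% of all reads, and reads placed at more than 1 locus, which the tables give no gene, were 41.6% and 38.2%. Intervals cover counting error only, since reads without molecular identifiers are not independent molecules. CPM below is a gene's reads in 1000000 reads assigned to genes. Small RNA reads are taken to span a mature microRNA, so counts were not divided by hairpin length.

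The members spread widely in level. Of the 2202 genes 389 reached 10 reads in each library and are called detected here, among them 7 of the 9 members. The 7 ranged in mean level between 4.06 CPM for Mir146b and 2370 CPM for Mir342. The median detected gene had 86.2 CPM in replicate 1 and 107 CPM in replicate 2. Mir342, Mir146, Mir150, Mir142 and Mir155 lay above that median in both libraries, and Mir223 and Mir146b below it in both. In bulk tissue, fewer cells of a type and less RNA per cell cannot be told apart.

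**Figure D1:**
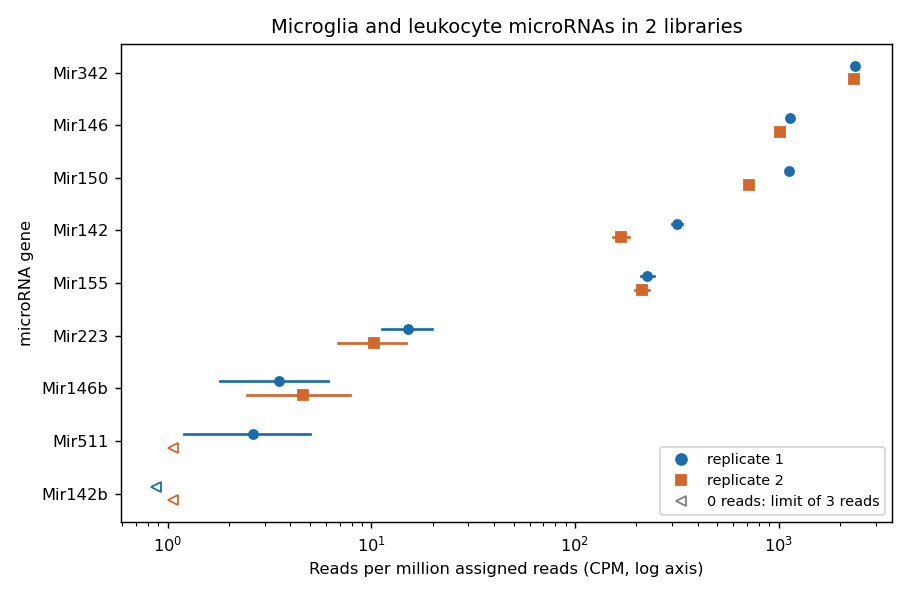
Level of each of the 9 genes in replicates 1 and 2, in CPM on a log axis; bars are exact 95% intervals and open triangles mark 0 reads, drawn at the limit of 3 reads. Mir342 is highest in both libraries, Mir142 and Mir150 show the widest gaps between libraries among the genes above 100 CPM, and Mir511 has reads in replicate 1 alone.

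Mir342 (ENSMUSG00000065436.1, mm10 chr12:108658620-108658718, plus strand) lies in an intron of Evl, which encodes an actin regulator and whose transcript runs on the same strand. It had 8162 reads in replicate 1 and 6639 in replicate 2, or 2385 CPM (2334 to 2437) and 2354 CPM (2298 to 2411). Its mean was 2370 ± 22.1 CPM (SD, n = 2), and the intervals of the libraries overlapped. Mir342 alone took 45.8% of the members' reads in replicate 1 and 52.4% in replicate 2. Without it the other 8 genes held 0.283% and 0.213% of assigned reads. Mir342 stood at rank 55 of the 2202 genes in replicate 1 and at rank 57 in replicate 2.

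Mir146 (ENSMUSG00000065601.1, chr11:43374397-43374461, minus strand), the gene of miR-146a, lies outside other annotated genes, with the noncoding gene Gm12148 the nearest at 11021 bp. miR-146a is known to repress Traf6 and Irak1, signalling proteins downstream of Toll-like receptors. Mir146 had 3875 reads in replicate 1 and 2877 in replicate 2, or 1132 CPM (1097 to 1169) and 1020 CPM (983 to 1058). Its mean was 1076 ± 79.4 CPM (SD, n = 2). The exact intervals of the libraries did not overlap.

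Mir146b (ENSMUSG00000070127.2, chr19:46342762-46342870, plus strand) lies in an intron of Mfsd13a. It had 12 reads in replicate 1 and 13 in replicate 2, or 3.51 CPM (1.81 to 6.13) and 4.61 CPM (2.45 to 7.88). Its 5p arm differs from that of Mir146 at 2 of 22 positions, G18A and U21C, counted from the 5′ end with the base of miR-146a-5p first. The longest stretch shared by the 2 hairpins was 21 bases and ends before the first of these positions. Reads cut short of it would fit both genes, so both levels are uncertain.

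Of the reads at the 2 genes that share the seed GAGAACU, Mir146b held 12 of 3887, or 0.309% (0.160 to 0.539), in replicate 1. In replicate 2 it held 13 of 2890, or 0.450% (0.240 to 0.768). No difference in the split between the libraries was detected beyond counting error (two-sided Fisher's exact test, p = 0.419). Mir146 thus took 99.7% and 99.6% of these reads. The seed sits outside the positions that tell the arms apart, as the printed pair shows.

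Mir155 (ENSMUSG00000065397.1, chr16:84714140-84714204, plus strand) lies in an exon of its noncoding host Mir155hg. It had 776 reads in replicate 1 and 603 in replicate 2, or 227 CPM (211 to 243) and 214 CPM (197 to 232). The mean was 220 ± 9.17 CPM (SD, n = 2) and the intervals overlapped. Mir146 had 4.99 reads for each Mir155 read in replicate 1 (4.62 to 5.40) and 4.77 in replicate 2 (4.37 to 5.22). The intervals of this ratio overlapped between the libraries, as did those of Mir342 and Mir155. Both Mir146 and Mir155 are known to respond to NF-kB, and its part in their ratio was not tested.

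Mir142 (ENSMUSG00000105196.1, chr11:87756864-87756927, plus strand) lies in an intron of the noncoding host Mir142hg. It had 1085 reads in replicate 1 and 477 in replicate 2, or 317 CPM (298 to 337) and 169 CPM (154 to 185). The mean was 243 ± 105 CPM (SD, n = 2). The intervals did not overlap, and the SD was 43.0% of the mean, the highest of the 7 detected members.

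Mir142b (ENSMUSG00000065420.2, chr11:87756841-87756955, minus strand) is annotated on the opposite strand over the whole of the Mir142 hairpin. It had 0 reads on its own strand in both libraries, which allows up to 0.877 CPM in replicate 1 and 1.06 CPM in replicate 2 (3 reads). Both printed arms of miR-142a lie within the Mir142b hairpin as the reverse complement. In the deposited column that disregards strand, Mir142 also had 0 reads in both libraries, so the miR-142 values exist only where strand was used.

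Mir150 (ENSMUSG00000065495.1, chr7:45121757-45121821, plus strand) lies outside other annotated genes, 96 bp from the noncoding gene Gm45552. In lymphocytes miR-150 is known to repress Myb. Mir150 had 3868 reads in replicate 1 and 2022 in replicate 2, or 1130 CPM (1095 to 1167) and 717 CPM (686 to 749). The mean was 924 ± 292 CPM (SD, n = 2). In replicate 1 it was level with Mir146 and in replicate 2 below it. Its hairpin had the highest GC content of the 9, at 63.1%.

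Mir223 (ENSMUSG00000076066.1, chrX:96242817-96242926, plus strand) lies in an exon of the noncoding gene F630028O10Rik. It had 52 reads in replicate 1 and 29 in replicate 2, or 15.2 CPM (11.3 to 19.9) and 10.3 CPM (6.89 to 14.8). Its mean was 12.7 ± 3.47 CPM (SD, n = 2), and the intervals overlapped. Mir142 had 20.9 reads for each Mir223 read in replicate 1 (15.8 to 28.1) and 16.4 in replicate 2 (11.3 to 24.8).

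Mir511 (ENSMUSG00000077897.1, chr2:14261003-14261081, plus strand) lies in an intron of Mrc1, the mannose receptor gene of macrophages, on its strand. It had 9 reads in replicate 1, or 2.63 CPM (1.20 to 4.99). Replicate 2 held 0, and the limit of 3 reads that a count of 0 allows is 1.06 CPM there. Mir511 was therefore not called detected. Levels within the set were unequal, with Mir342 at 2354 to 2385 CPM, Mir150 at 717 to 1130 CPM and Mir142 at 169 to 317 CPM. Mir223 stood at 10.3 to 15.2 CPM, and Mir511 and Mir142b at or near 0. In unsorted tissue without a control, levels do not show whether the label of the set is met.

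The order by mean level was Mir342, Mir146, Mir150, Mir142, Mir155, Mir223, Mir146b, Mir511 and Mir142b. Of the 8 neighbouring pairs in this order, 5 had ranges over the 2 libraries that did not overlap. The ranges overlapped for Mir146 and Mir150, for Mir142 and Mir155, and for Mir511 and Mir142b. Neighbours were also compared within each library by a two-sided exact binomial test of equal counts, adjusted by Benjamini-Hochberg over all 16 tests, and 13 passed. Mir146 and Mir150 did not pass in replicate 1 (3875 against 3868 reads, exact binomial adjusted p = 1.00). Mir146b and Mir511 did not pass in replicate 1 either (12 against 9 reads, exact binomial adjusted p = 0.758), although their ranges over libraries do not overlap. Of all 36 pairs of members, 34 had the same order in both libraries. Pairs of other genes were not counted, so these counts have no background share beside them. The members also spread widely in level, so a kept order is no trait particular to them.

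Mir142 and Mir155 changed places between the libraries. Replicate 1 held 1085 reads of Mir142 against 776 of Mir155, whereas replicate 2 held 477 against 603, a ratio of 0.791 with an upper 95% bound of 0.893. Both tests of the pair passed, in opposite directions (exact binomial test, adjusted p = 1.66e-12 in replicate 1 and 0.000225 in replicate 2). The other pair without a constant order was Mir511 and Mir142b, both at 0 in replicate 2.

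**Figure D2:**
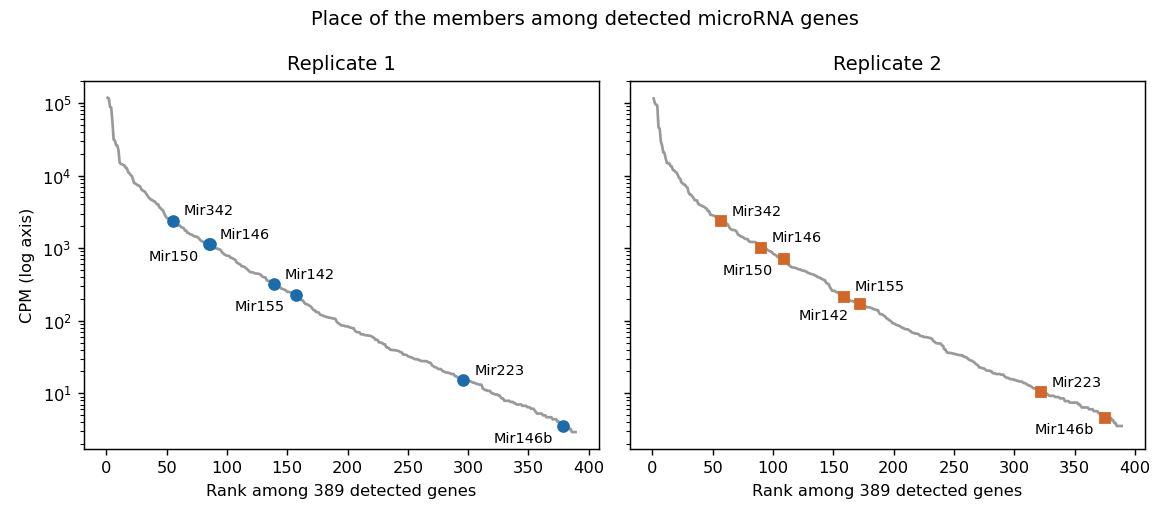
Level of every detected gene in CPM (log axis) against its rank among the 389 detected genes, in replicate 1 (left) and replicate 2 (right), with the 7 detected members marked. Mir342 lies at ranks 55 and 57, Mir150 at 86 and 109, Mir142 at 139 and 172, and Mir146b near the end in both.

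Within a library the ratio of 2 genes does not depend on library size. The ratios were taken for all 21 pairs of detected members, a comparison chosen after the data were seen. The exact 95% intervals of the libraries overlapped for 13 pairs and did not for 8. No such count was made for pairs of other genes, so it has no background share beside it. Of all 389 tested genes, 67.6% differed between the libraries by the exact binomial test described below. That share is of single genes and by another measure, so it cannot be set against the count of pairs. Mir150 or Mir142 was in each of the 8 pairs except that of Mir342 and Mir146, whose ratio was 2.11 (2.03 to 2.19) in replicate 1 and 2.31 (2.21 to 2.41) in replicate 2. Mir342 had 7.52 reads for each Mir142 read in replicate 1 (7.06 to 8.02) and 13.9 in replicate 2 (12.7 to 15.3). Mir342 and Mir155 had overlapping intervals, with 10.5 (9.77 to 11.3) in replicate 1 and 11.0 (10.1 to 12.0) in replicate 2. Mir150 had 3.56 reads for each Mir142 read in replicate 1 (3.33 to 3.82) and 4.24 in replicate 2 (3.83 to 4.69). Pairs with Mir223 or Mir146b all had overlapping intervals, which are wide at 12 to 52 reads.

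**Figure D3:**
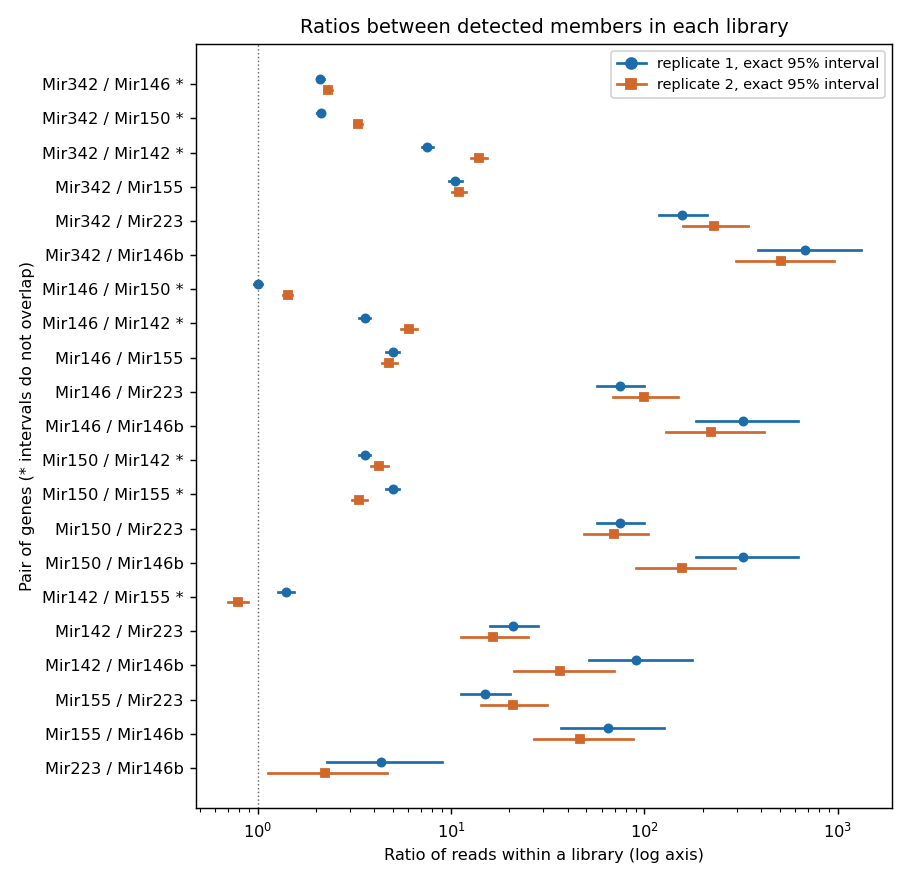
Ratio of reads between members of each of the 21 detected pairs, within replicate 1 (circles, upper) and replicate 2 (squares, lower), on a log axis with exact 95% intervals; a star marks the 8 pairs whose intervals do not overlap. The pair of Mir142 and Mir155 lies on both sides of a ratio of 1.

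The libraries were then compared across all 389 detected genes, with TMM-scaled totals, by a two-sided exact binomial test whose p-values were adjusted by Benjamini-Hochberg. This test compares 2 libraries beyond counting error and not conditions. At an adjusted p under 0.05, 33.7% of the genes tested were higher in replicate 1 and 33.9% higher in replicate 2, or 67.6% in either direction. Of the 7 detected members 5 were higher in replicate 1, none was higher in replicate 2 and 2 did not pass. Their median log2 ratio of replicate 1 over replicate 2 was 0.25, and that of all tested genes was -0.055. An edgeR exact test, which takes its error from how far the replicates lie apart, called 0.514% of the genes tested. It called no member, and none had an unadjusted p under 0.05 (lowest 0.248), while 23 of all tested genes did. Its error was estimated from the same gap between libraries that it tests, so its lack of member calls says nothing about whether they differ.

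Mir142 and Mir150 had the largest log2 ratios among the members. That of Mir142 was 1.00 (95% interval 0.85 to 1.16), 2.01-fold higher in replicate 1 (exact binomial test, adjusted p = 9.24e-39). Of the 389 tested genes 40 had a higher ratio. Mir150 followed with 0.75 (0.68 to 0.83), or 1.69-fold (exact binomial test, adjusted p = 1.2e-83), and 55 genes had a higher ratio. For comparison, the median absolute log2 ratio of all tested genes was 0.52.

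The other called members differed by little. The log2 ratio was 0.25 (0.18 to 0.32) for Mir146, 0.18 (0.027 to 0.34) for Mir155 and 0.12 (0.070 to 0.16) for Mir342. With library totals in place of TMM neither Mir342 (0.019, exact binomial adjusted p = 0.482) nor Mir155 (0.085, adjusted p = 0.343) passed, and with no filter on low counts Mir155 did not (adjusted p = 0.0538). After a correction for hairpin GC content the log2 ratios of Mir146 and Mir155 were below 0, at -0.025 and -0.021. Mir223 had a log2 ratio of 0.66 (-0.021 to 1.37; exact binomial test, adjusted p = 0.0808, and 0.0384 with DESeq2 size factors) and Mir146b one of -0.30 (-1.56 to 0.95; adjusted p = 0.742 by the same exact test). The interval of Mir223 holds 0 and the values of every called member, so its counts do not tell its ratio apart from any of them.

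**Figure D4:**
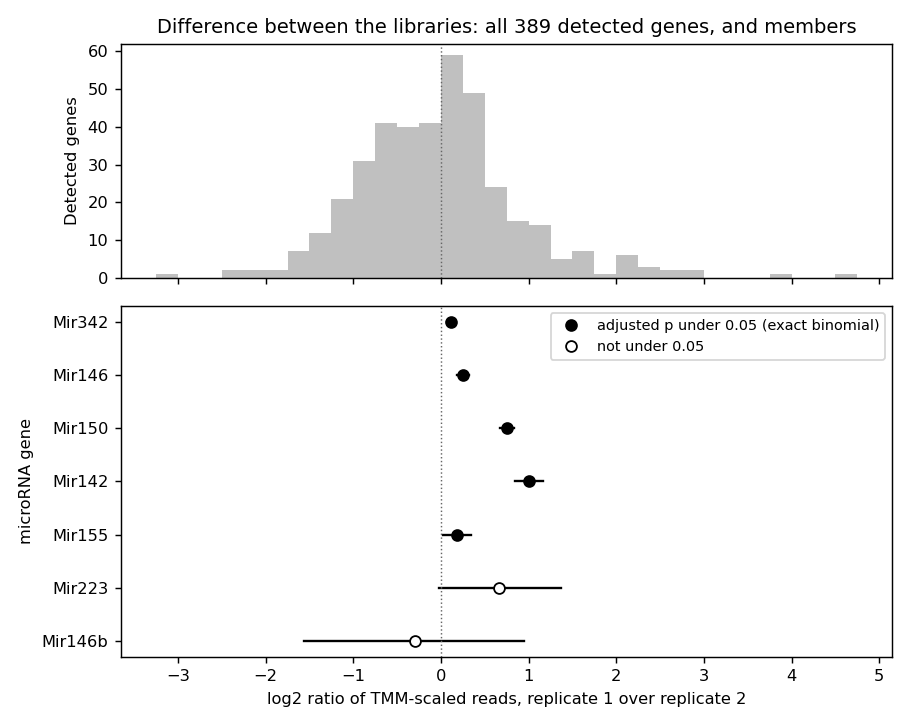
Upper panel: number of detected genes (of 389) by log2 ratio of TMM-scaled reads, replicate 1 over replicate 2. Lower panel: the 7 detected members on the same axis with exact 95% intervals, filled where the adjusted p is under 0.05; Mir142 (1.00) and Mir150 (0.75) lie furthest right, and Mir342 (0.12) and Mir155 (0.18) near 0.

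Markers of other cell types also differed between the libraries, and their part in the ratios of Mir142 and Mir150 was not tested. For comparison, 33.7% of all 389 tested genes passed as higher in replicate 1 and 33.9% as higher in replicate 2. All 3 endothelial and mural genes passed the test and were higher in replicate 1, with summed levels of 21670 CPM in replicate 1 and 13157 CPM in replicate 2. Mir143 (12791 and 5473 CPM, log2 ratio 1.32) and Mir145a (1009 and 220 CPM, 2.30), known from mural cells, carried most of this gap, and Mir126a, known from endothelium, little of it (7871 and 7464 CPM, 0.17). Mir145a was named after its values were seen. Of 5 choroid plexus and ependyma genes 3 were higher in replicate 1, 1 was lower and 1 did not pass, with sums of 3416 and 1638 CPM, led by Mir34c and Mir204. Of 12 detected neuron genes (15 listed) 3 were higher in replicate 1 and 9 higher in replicate 2, with sums of 34067 and 35921 CPM, led by Mir132 and Mir128-1. Of the 15 listed, 11 share sequence with a gene at another place, Mir128-1 among them, so their counts and the sums are uncertain. The oligodendrocyte list summed to 5027 and 6671 CPM, with 2 of 3 genes detected, Mir338 higher in replicate 2 and Mir219a-2 in replicate 1. Mir219a-2 also shares sequence and is uncertain.

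Red blood cell markers stood at low levels. Mir451a, abundant in erythroid cells, had 74 reads in replicate 1 and 94 in replicate 2, and Mir486 had 68 and 58. The 3 genes summed to 47.6 CPM in replicate 1 and 59.9 CPM in replicate 2, with none called higher in replicate 1 and Mir451a alone called higher in replicate 2 (log2 ratio -0.53, exact binomial test, adjusted p = 0.0303). The part of red blood cells in the ratios of the members was not tested.

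Among other microRNAs linked to innate immune signalling or lymphocytes, some were higher in replicate 1 and some in replicate 2. Their part in the ratios of the members was not tested. Of 15 genes listed as responsive to Toll-like receptors or NF-kB, members left out, 13 were detected. Among the 15, 5 share sequence with a gene at another place, so their counts are uncertain. Of the 13 detected, 8 were higher in replicate 1, 4 higher in replicate 2 and 1 did not pass. Their median log2 ratio was 0.31, against -0.055 for all tested genes and 0.25 for the detected members. The highest genes of this list were Mirlet7e (31261 and 25813 CPM) and Mir132 (13708 and 11795 CPM). Neurons are also known to express both, so the list does not mark immune cells. Of 11 genes linked to lymphocytes, members left out, 9 were detected. Among the 11, 6 share sequence with a gene at another place, so their counts and the median are uncertain. Of the 9 detected, 4 were higher in replicate 1, 2 higher in replicate 2 and 3 did not pass, with a median of 0.0080. This list was led by Mir181b-2 (1439 and 1774 CPM), which shares sequence with a copy and is uncertain, and Mir17 (684 and 511 CPM). Both are expressed beyond lymphocytes. Across all 389 tested genes 131 were higher in replicate 1, 132 higher in replicate 2 and 126 did not pass.

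For the 5 members that reached 100 reads in each library, the gene most like each was taken from 382 other detected genes, by the Euclidean distance in log2(CPM + 1) over the 2 libraries. With only 2 libraries this says that levels lie close, and no more. Mir130a lay 0.010 from Mir146, with 1126 and 1016 CPM. Mir760 lay 0.095 from Mir342, with 2432 and 2506 CPM, and Mir296 lay 0.13 from Mir155, with 246 and 223 CPM. Mir204, one of the choroid plexus genes, lay 0.13 from Mir150, with 1231 and 739 CPM. Mir142 had the largest distance, 0.22, to Mir467e, with 275 and 179 CPM, a gene that shares sequence with copies and is uncertain.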

How the data were processed

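Each library came with a table of whole-number counts by microRNA gene, which the authors deposited in 3 columns: strand disregarded, sense and antisense. Sense counts were used. Notes deposited beside the tables name mm10 and GENCODE M21. Aligner, counter, trimming and the handling of multiply placed reads: not given in the sources used here. Library sizes and tests excluded the 4 rows that name no gene, which took 64.8% of all reads in replicate 1 and 67.0% in replicate 2. GENCODE M21 held all 2202 gene IDs and supplied symbols, positions and hairpins. A gene was called as sharing sequence where its hairpin held 20 bases of a microRNA gene at another place. RefSeq gave the mature sequences.

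Counts of the libraries were compared gene by gene with an exact binomial test against TMM sizes (edgeR 4.0.16 in R 4.3.3; scipy 1.17.1), adjusted by Benjamini-Hochberg over 389 genes. A quasi-likelihood test needs 2 groups and was not possible. The edgeR exact test used a common biological coefficient of variation of 0.41, estimated from both libraries. The binomial test was tested on simulated counts with counting error only and with library totals as sizes. That does not show how it behaves at the spread between these libraries. Size factors of DESeq2 1.42.0 were an alternative. The text names every member, the 2 highest genes of each marker list, the gene nearest in level to each member of at least 100 reads, and genes that share a seed with a member. Members and lists were chosen with earlier results of these data known.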

Additional observations from a re-analysis of the deposited data

Results flagged for a closer look

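The deposited column of reads on the opposite strand, which no comparison above used, held 1085 reads in replicate 1 and 477 in replicate 2 at Mir142b, above the limit of 3 reads that a count of 0 allows. These numbers equal the reads of Mir142 on its own strand, which lies within Mir142b on the other strand. No other member had opposite-strand reads.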

How the results depend on the processing

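The members' mean share of assigned reads was 0.485%. With all reads as the library size it was 0.166%, and over single libraries it ranged from 0.449 to 0.521%. By the exact binomial test 263 of 389 tested genes and 5 of 7 tested members differed between the libraries. An edgeR exact test, with error from the gap between replicates, called 2 genes, 2 higher in replicate 1 and 0 higher in replicate 2, and 0 members, while 23 genes had an unadjusted p under 0.05; that error comes from the same gap it tests. With a minimum of 1.5-fold, chosen after the data were seen, 151 of 389 genes were called, 63 of them higher in replicate 1. Of the 7 members 2 were called, Mir142 and Mir150. With library totals in place of TMM 3 of 7 members were called, all higher in replicate 1. Of the 389 genes 261 were called at that setting, 115 of them higher in replicate 1. The median log2 ratio of all genes was then -0.15, against -0.055 with TMM. After a linear correction for hairpin GC content the log2 ratios of Mir146 (-0.025) and Mir155 (-0.021) turned below 0, and those of Mir150 and Mir142 were 1.01 and 0.78; the cause was not tested. Mir142 had 0 reads in the column without strand. Among all recomputed values, those of single libraries left aside, 41 summaries and 48 values of single members stayed on their side of the threshold, within the replicate spread or, for counts, within 1.5 times. Against these, 12 summaries and 15 member values moved beyond that. A further 11 member values lost their call, 2 reversed sign and 1 gained a call. The mean of Mir342, for example, was 2370 CPM in the main setting and 808 CPM with all reads as the library size. The low counts of Mir223, Mir146b and Mir511 limit what these libraries can show of them.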
